A study of Mus musculus with 7 samples.

Results

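Pancreatic epithelium 28 days after caerulein was compared with the same tissue 1 day after it, by asking which accessible regions were present at one time and missing at the other. A day 28 region was called opened when no day 1 peak overlapped it by 1 bp, and a day 1 region was called closed when no day 28 peak overlapped it. On chromosomes 1 to 19 and X, 40518 of the 130149 day 28 regions had opened (31.1%) and 83251 of the 164684 day 1 regions had closed (50.6%). These 123769 regions are described here, out of 580456 in the 4 peak lists used.

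Accessible DNA was mapped by ATAC-seq, which uses a transposase to cut and tag it, in epithelial cells purified from digested pancreata of C57BL/6J wild-type mice. Caerulein, an analogue of the hormone cholecystokinin, overstimulates acinar cells and causes a transient acute pancreatitis. The groups were untreated epithelium and epithelium harvested 1, 7 and 28 days after caerulein. Each group was 1 library and 1 peak list, so no difference has a replicate check, no test was possible, and every value compares libraries. The sources used here do not give the caerulein dose or the number, age and sex of the mice. Another 3 libraries of the series, from DCLK1-positive cells, were not analysed here.

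Most of the exocrine pancreas consists of acinar cells, which make digestive enzymes under the control of factors such as PTF1A, NR5A2, GATA4 and MIST1 (Bhlha15). During pancreatitis these cells lower their secretory programme and take on duct-like and injury-associated features, a state called acinar-to-ductal metaplasia, while stromal and immune cells become active around them. When the inflammation resolves, acinar morphology returns. The comparison of day 28 with day 1 therefore sets the resolved tissue against the height of the injury.

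The 2 lists differed in depth and enrichment. The background pileup, derived from the step between fold values, was 5.35 at day 1 and 2.52 at day 28, against 5.07 in the untreated and 2.72 in the day 7 library. In regions with a peak in the other list, the median of fold enrichment minus 1 was 10.7 at day 1 and 6.95 at day 28. Under a common enrichment floor the day 1 list shrank to 124125 regions, and the counts became 47604 opened and 53006 closed. The excess of closed over opened regions was thus much smaller on that scale. Fold enrichments are the authors' values and rank regions within their own list only.

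Genes of the secretory acinar cell carried many of the regions that had opened by day 28. Of the 308 day 28 regions at 27 digestive enzyme genes, 260 had opened, or 84.4% (exact 95% interval 79.9 to 88.3, counting error only). Over all regions linked to a protein-coding gene within 50 kb the opened share was 31.1%. Only 7 of the 63 day 1 regions at these genes had closed, against 48.4% of all linked day 1 regions. At day 1 the acinar markers Cel, Cpb1, Ctrl, Gp2 and Rnase1 had no region at all, and the 63 regions lay at other genes of the list, such as Pnlip. The epithelial marker Cdh1 had 13 at day 1, which was also fewer than in the untreated list. Opened regions outnumbered closed ones at 26 of the 27 genes and the reverse held at 0, whereas 29.2% of all genes with either kind had more opened regions. In these bulk samples, fewer acinar cells in the day 1 preparation and less accessibility per cell cannot be told apart.

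The promoters of these genes make the change visible at the sequence level. RefSeq promoter windows on GRCm38.p6, running from 250 bases before to 50 after a gene's annotated start, were available for 23 of the digestive enzyme genes. Of the 18 windows with a day 28 peak, 12 held an opened region and no day 1 peak, compared with 2.98% of all windows with a day 28 peak. They belonged to Cel, Cela3b, Cpa1, Cpb1, Ctrl, Gp2, Klk1, Pla2g1b, Pnlip, Pnliprp1, Rnase1 and Try4. The 3 with the strongest opened region at day 28 in the enzyme and acinar factor lists are shown 5′ to 3′ on the gene's strand. Capitals mark matches to the short motifs listed further on.
Cel (chr2:28563354-28563653, minus strand): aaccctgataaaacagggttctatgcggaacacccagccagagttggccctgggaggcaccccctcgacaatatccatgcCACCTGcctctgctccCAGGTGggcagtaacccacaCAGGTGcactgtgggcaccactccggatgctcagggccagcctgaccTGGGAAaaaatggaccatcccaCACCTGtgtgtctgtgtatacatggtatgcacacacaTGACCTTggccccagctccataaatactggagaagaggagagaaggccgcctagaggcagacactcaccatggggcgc
Gp2 (chr7:119459223-119459522, minus strand): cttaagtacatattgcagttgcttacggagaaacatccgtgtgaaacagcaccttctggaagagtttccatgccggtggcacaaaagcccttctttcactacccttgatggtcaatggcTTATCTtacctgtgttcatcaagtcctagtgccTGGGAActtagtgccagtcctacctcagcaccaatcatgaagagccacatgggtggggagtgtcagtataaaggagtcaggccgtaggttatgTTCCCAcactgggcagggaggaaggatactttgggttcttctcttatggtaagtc
Cpa1 (chr6:30638968-30639267, plus strand): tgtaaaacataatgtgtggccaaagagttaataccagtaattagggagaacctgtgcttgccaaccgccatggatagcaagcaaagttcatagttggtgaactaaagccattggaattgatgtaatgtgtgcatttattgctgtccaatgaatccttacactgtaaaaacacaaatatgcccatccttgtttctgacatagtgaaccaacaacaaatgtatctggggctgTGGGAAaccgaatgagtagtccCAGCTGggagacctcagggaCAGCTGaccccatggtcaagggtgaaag

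Cel encodes carboxyl ester lipase, Gp2 a zymogen granule membrane glycoprotein and Cpa1 carboxypeptidase A1. The peak over the Cel window reached 42.7 times background in untreated tissue, was missing at day 1, and stood at 20.4 on day 7 and 42.9 on day 28. At Cpa1 the values were 25.2 in the untreated list, no peak at day 1, 7.52 at day 7 and 30.9 at day 28. At Gp2 they were 29.3 in the untreated list and 32.1 at day 28, with no peak at day 1 or day 7. All 3 promoters were thus open before the injury and again after it, and Gp2 was the one still without a peak at day 7. These folds come from lists of different depth, so their sizes do not measure a degree of recovery.

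The Cel window held 4 E boxes of the kind bound by PTF1A and its partners (CACCTG or its reverse complement), and a TGGGAA, the RBPJ-type element of the PTF1 site, 87 bases before the start. It also held an NR5A-type match 28 bases before the start. Cpa1 held TGGGAA 20 bases before the start and CAGCTG at 3 and 23 bases after it, and Gp2 held 2 RBPJ-type matches and a GATA-type match. A match describes the letters only and says nothing of binding.

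Across the digestive enzyme list, regions of the lipase genes were the most numerous. Pnlip, the gene of pancreatic lipase on chromosome 19 (58670365 to 58681799), had 30 regions in the untreated list, 7 at day 1, 13 at day 7 and 42 at day 28, of which 37 had opened. Its relative Pnliprp1 had 23, 2, 5 and 23, with 21 opened. Gp2 had 21, 0, 2 and 25, and all 25 had opened. Cpb1, for carboxypeptidase B1, had 10, 0, 3 and 17, and all 17 had opened. Day 1 was the lowest of the 4 lists at each of these 4 genes, and day 28 matched or exceeded the untreated count. Opened regions within 1 kb of a gene end were found at 20 of the 27 genes, against 9.3% of all protein-coding genes, and closed ones at 0, against 15.6%.

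**Figure D1:**
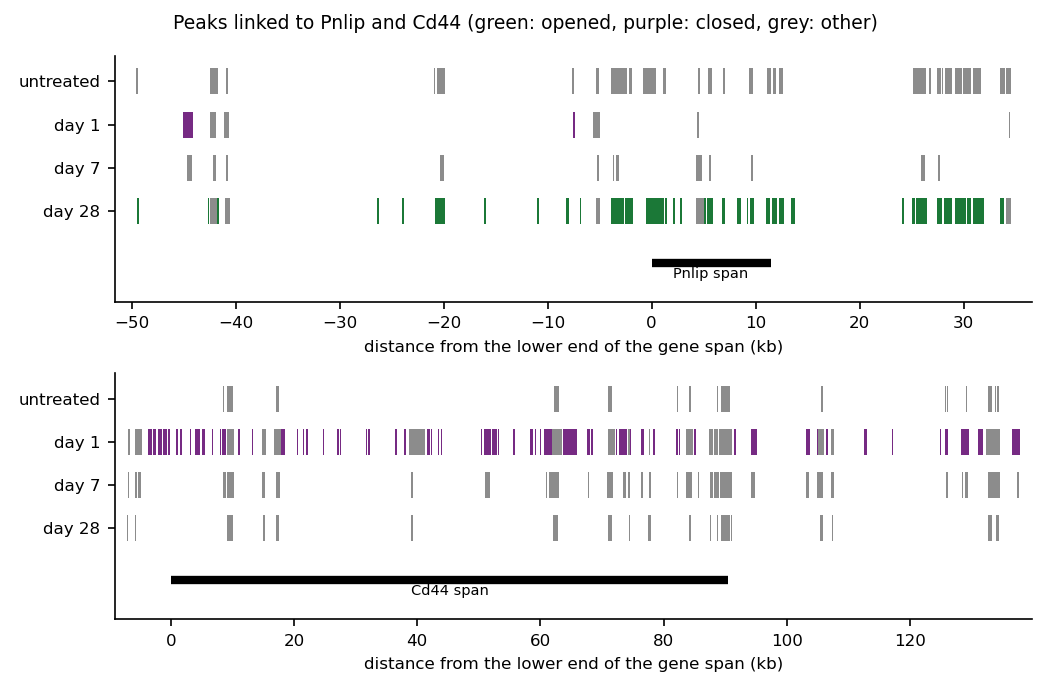
Peaks linked to Pnlip (top) and Cd44 (bottom) in each of the 4 lists, by distance in kb from the lower end of the gene span (black bar); green marks opened, purple closed and grey all other regions. Pnlip goes from 7 regions in the day 1 list to 42 in the day 28 list, Cd44 from 89 to 20.

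Genes for the factors that maintain acinar identity showed the same direction. Of 328 day 28 regions at 10 such genes, 202 had opened (61.6%, interval 56.1 to 66.9), and 75 of 210 day 1 regions had closed (35.7%). Gata4 had 44 regions in the untreated list, 13 at day 1, 28 at day 7 and 55 at day 28, of which 44 had opened and 0 closed. Nr5a2, an orphan nuclear receptor gene, had 47, 16, 28 and 53, with 41 opened and 2 closed. Ptf1a had 17, 3, 9 and 18, with 15 opened and 0 closed. At gene ends opened regions appeared at Gata4, Nr0b2, Nr5a2, Ptf1a and Xbp1. Creb3l1, with 10 opened and 12 closed, was the 1 gene of the list with more closed regions. The forkhead gene Foxp1 supplied 57 of the list's 75 closed regions and 58 of its opened ones while it had 120 regions in both lists.

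The secretory machinery followed. Genes of endoplasmic reticulum folding and export had 178 of 305 regions opened (58.4%) and 50 of 187 closed (26.7%). Eif2ak3, which encodes the stress kinase PERK, had 35, 15, 20 and 51 regions in the untreated, day 1, day 7 and day 28 lists, with 40 opened. Sel1l, a component of ER-associated degradation, had 47, 14, 22 and 51, with 39 opened. Sec24d, a COPII coat gene, went the other way, with 7 opened and 14 closed. Genes of amino acid metabolism had 90 of 161 regions opened (55.9%) and 33 of 118 closed (28.0%), among them Asns with 12 opened and Cbs with 11, while Cth had 1 opened and 8 closed. Genes of secretagogue response and exocytosis were mixed, with 133 of 335 opened (39.7%) and 220 of 406 closed (54.2%), and with the common enrichment floor 155 opened and 144 closed. There the calcium release channel gene Itpr2 had 17 opened and 38 closed regions, and the acetylcholine receptor gene Chrm3 had 7 and 24. Cckar, which encodes the receptor on which caerulein acts, had 9 opened and 1 closed, and 2 of the opened regions lay at its gene ends.

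Regenerating-protein genes, known as acute-phase genes of the injured pancreas, were among those with regions at day 28 and not at day 1. In the list of Reg, Spink1 and other acute-phase genes 57 of 71 day 28 regions had opened (80.3%, interval 69.1 to 88.8), and 42 of these were present in the untreated list. Reg1 had 9 regions in the untreated list, 0 at day 1, 1 at day 7 and 9 at day 28. Spink1, the trypsin inhibitor gene, had 16, 2, 9 and 14. The promoter windows of Reg1, Reg2, Reg3b, Reg3d and Reg3g all held an opened region and no day 1 peak. The strongest opened region at Reg1 had a fold of 52.8.

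Ductal and general epithelial genes also gained regions between the 2 times. In the ductal identity list 158 of 289 day 28 regions had opened (54.7%) and 44 of 199 day 1 regions had closed (22.1%). Cdh1, which encodes E-cadherin, had 41 regions in the untreated list, 13 at day 1, 29 at day 7 and 38 at day 28, with 28 opened and 1 closed. The pioneer factor gene Foxa2 had 21 opened and 0 closed, Krt18 12 and 0, and Pdx1 11 and 0. Sox9, a duct and progenitor factor gene, had 5 opened and 11 closed, and Onecut2 1 and 8. Most called regions at the keratin and cadherin genes had thus opened, and most at Sox9 had closed.

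**Figure D2:**
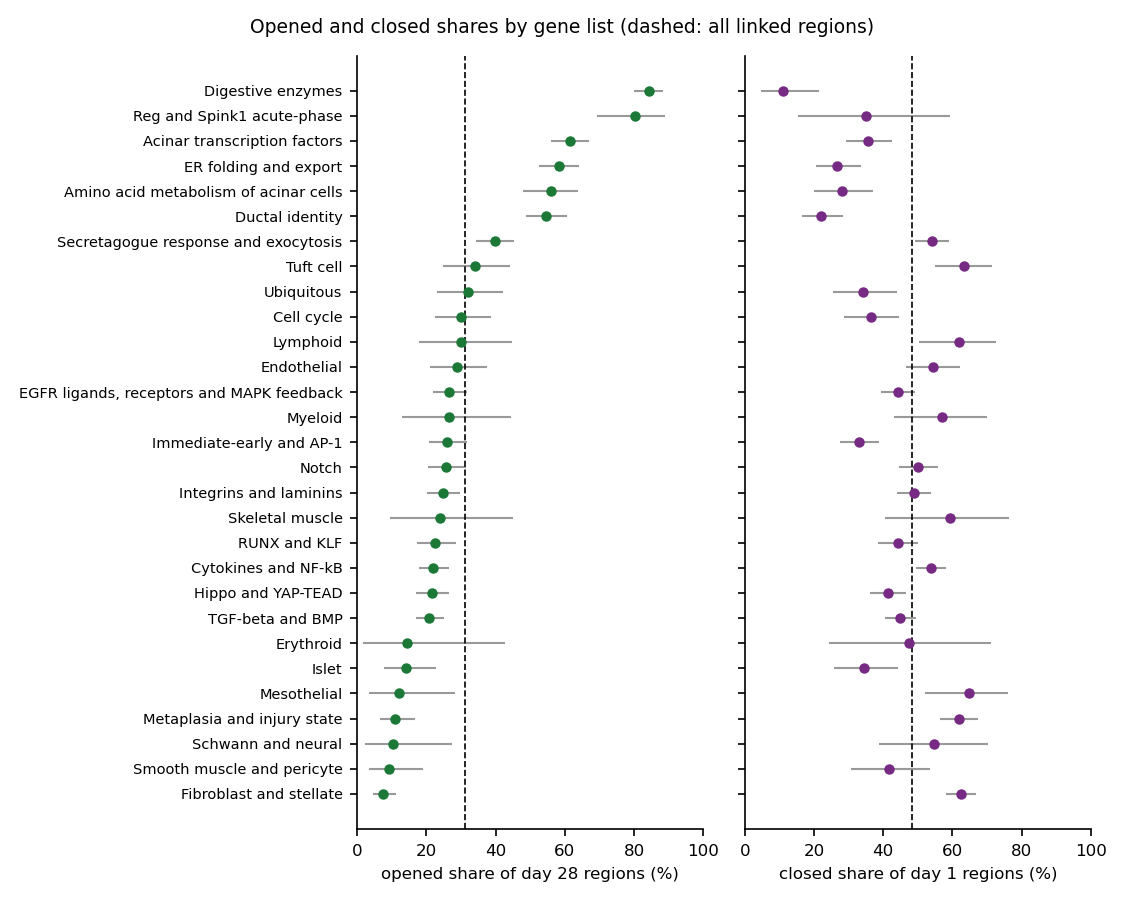
Share of day 28 regions that had opened (left, green) and of day 1 regions that had closed (right, purple) for 29 gene lists, in percent, with exact 95% intervals for counting error and dashed lines for all linked regions. Digestive enzyme genes lie at 84.4% opened and 11.1% closed, fibroblast and stellate genes at 7.39% and 62.5%.

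Closed regions, those present in the acute phase and missing after resolution, were frequent at genes associated with metaplasia and injury. Fibroblast and stellate genes had a similar closed share (62.5%), and which cells of the preparation carried these regions was not tested. In the metaplasia and injury list 194 of 313 day 1 regions had closed (62.0%, interval 56.4 to 67.4) and 18 of 166 day 28 regions had opened (10.8%). Over all linked regions these shares were 48.4% and 31.1%. Cd44, which encodes a hyaluronan receptor of regenerating and stem-like epithelium, supplied 72 of the list's closed regions and had 0 opened. It had 17 regions in the untreated list, 89 at day 1, 40 at day 7 and 20 at day 28. Of the 72 closed regions 68 were not in the untreated list. Anxa2 had 15 closed regions, Msn 14, Vim 13 and Anxa1 12, of which only Msn had 1 opened region. At Anxa1 the highest count was at day 7, with 6, 19, 27 and 8 regions over the 4 lists. Gene-end regions had closed at genes including Anxa3, Cd44, Plaur, Tm4sf1 and Vim and had opened at none of the list.

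Cytokine and NF-kB genes had 294 of 546 day 1 regions closed (53.8%, interval 49.6 to 58.1). They had 86 of 391 day 28 regions opened (22.0%). Over all linked regions these shares were 48.4% and 31.1%. Under the common enrichment floor the closed share was 43.4% for the list and 40.2% for all linked regions. Of the 294 closed regions 273 (92.9%) were absent from the untreated list, against 88.1% of all linked closed regions. Nfkb1, the gene of the p105 and p50 NF-kB subunit, had 36, 88, 44 and 36 regions and 64 closed. Il33, an alarmin gene, had 7, 29, 25 and 12, with 21 closed, and Tnfaip3, which encodes the feedback inhibitor A20, had 13, 29, 29 and 12, with 20 closed. At both Il33 and Tnfaip3 the day 7 count was near that of day 1 and the day 28 count near the untreated one. Lifr, a receptor of the interleukin 6 family, and Stat3 went against their list, with 30 opened and 7 closed and with 13 opened and 5 closed. Closed gene-end regions were found at 14 of the 32 genes, including Ccl2, Ccl20, Cxcl2, Cxcl5 and Il6, and an opened one at Tnf only. Of all protein-coding genes 15.6% had a closed and 9.3% an opened gene-end region.

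The injury-related genes had few promoter windows whose peak was lost entirely. Across all windows with a day 1 peak, 4.24% held a closed region and no day 28 peak. The 3 with the strongest closed region in the injury, signalling and fibroblast lists are shown in the same way. In each a window at an annotated start of the gene was without a peak at day 28. It need not be the gene's only start. The closed gene-end region of Tm4sf1, at 57386955 to 57387247 on chromosome 3, lay elsewhere than its window.
Runx1 (chr16:92826025-92826324, minus strand): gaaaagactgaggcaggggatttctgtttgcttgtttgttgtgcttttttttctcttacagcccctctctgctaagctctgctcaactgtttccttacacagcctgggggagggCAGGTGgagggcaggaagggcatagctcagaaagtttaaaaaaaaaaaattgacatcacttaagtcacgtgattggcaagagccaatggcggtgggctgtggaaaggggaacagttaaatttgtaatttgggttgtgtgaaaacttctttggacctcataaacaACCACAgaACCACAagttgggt
Tm4sf1 (chr3:57301939-57302238, minus strand): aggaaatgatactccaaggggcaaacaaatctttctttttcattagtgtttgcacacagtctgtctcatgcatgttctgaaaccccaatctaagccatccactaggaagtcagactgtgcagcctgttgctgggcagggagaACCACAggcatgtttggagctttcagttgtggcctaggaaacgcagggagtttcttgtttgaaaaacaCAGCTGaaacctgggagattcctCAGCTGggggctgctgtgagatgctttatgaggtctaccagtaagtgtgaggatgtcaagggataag
Il33 (chr19:29945540-29945839, plus strand): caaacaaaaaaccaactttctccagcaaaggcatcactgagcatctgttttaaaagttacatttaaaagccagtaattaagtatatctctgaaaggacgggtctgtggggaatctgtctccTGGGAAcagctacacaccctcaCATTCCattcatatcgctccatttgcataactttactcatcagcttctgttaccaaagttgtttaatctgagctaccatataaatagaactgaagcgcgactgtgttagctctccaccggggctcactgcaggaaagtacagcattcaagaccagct

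The Runx1 window, at one of the annotated starts of this RUNX factor gene, had a fold of 28.7 at day 1 and 4.84 at day 7, and no peak in the untreated or day 28 list. It held 2 ACCACA matches, the RUNX motif itself, at 29 and 37 bases after the start, and a CAGGTG E box 136 bases before it. The window of Tm4sf1, a tetraspanin-like surface protein gene, had values of 3.46, 13.6 and 7.25 in the untreated, day 1 and day 7 lists. The Il33 window had a peak at day 1 only, of 9.61 fold. Of the 3 windows, that of Tm4sf1 alone had a peak before the injury. The Tm4sf1 window held CAGCTG at 40 and 17 bases before the start and ACCACA at 108 before it. Il33 held TGGGAA at 129 and a TEAD-type match at 107 bases before the start. E box or RBPJ-type letters were thus found in the opened and the closed windows shown.

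Opened and closed promoters differed in composition. Opened windows numbered 395 and closed ones 571, while 12760 had a peak at both times. Windows with a peak at both times had a median of 21 CpG and 62.0% GC, opened windows 5 CpG and 52.3% GC, and closed windows 7 CpG and 54.7% GC. An untreated peak lay over 82.0% of the opened and 23.8% of the closed windows. Short motifs were searched on both strands of every window. The AP-1 letters, TGANTCA, were in 16.5% of closed, 8.35% of opened and 7.04% of all windows, and in 10.02% of windows with a peak at neither time. E boxes were taken as CACCTG plus the palindrome written CAGCTG, and 52.7% of opened, 34.5% of closed and 32.2% of all windows held one, as did 34.1% of windows with a peak at neither time. The motif of GATA factors, searched as AGATAA, was in 17.2% of opened, 9.98% of closed and 9.68% of all windows, but also in 16.8% of windows with a peak at neither time. The RUNX letters, TGTGGT, were in 14.2% of opened, 19.8% of closed and 14.7% of all windows, and in 20.9% of windows with a peak at neither time. The RBPJ letters, TGGGAA, can overlap those of NF-kB and of TEAD, searched as CATTCC, and were in 28.4% of opened and 24.3% of closed windows. The other motifs, TEAD, NF-kB and the NR5A letters AAGGTCA, differed by less than 5 percentage points between opened and closed windows. The sets also differ in base composition, whose part in these shares was not tested.

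Immediate-early and AP-1 genes had lower shares of both kinds than all genes. There 94 of 284 day 1 regions had closed (33.1%) and 66 of 254 day 28 regions had opened (26.0%). Fosl2 had 23, 33, 42 and 26 regions, with 17 closed and 5 opened, whereas Fos had 12 opened and 10 closed and Jun 9 and 6. The balance of this list turned from more closed to more opened under the common enrichment floor, where opened exceeded closed regions by 27. RUNX and KLF genes had 135 of 305 closed (44.3%) and 51 of 227 opened (22.5%), with 34 closed at Runx2, 28 at Runx1 and 14 at Runx3. Runx1 had 33, 61, 62 and 43 regions over the 4 lists, so its day 28 count lay between those of the untreated and the injured tissue.

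Signalling genes had opened shares below the 31.1% of all linked regions and closed shares of 41.3% to 50.2%, on either side of the 48.4% of all linked regions. EGFR and MAPK feedback genes had 183 of 414 closed (44.2%) and 90 of 338 opened (26.6%). Spred1, a RAS pathway inhibitor gene, had 31 closed and 0 opened regions, while Tgfa, an EGFR ligand gene, had 20 opened and 2 closed. Hippo genes had 151 of 366 closed (41.3%, interval 36.2 to 46.5) and 66 of 307 opened (21.5%, 17.03 to 26.5). TGF-beta and BMP genes had 232 of 516 closed (45.0%) and 87 of 419 opened (20.8%, 16.98 to 25.0). Notch genes had 157 of 313 closed (50.2%) and 67 of 260 opened (25.8%), and integrin and laminin genes 205 of 419 (48.9%) and 83 of 334 (24.9%). Within these lists single genes differed widely. Maml2, a Notch coactivator gene, had 53 closed and 2 opened, Notch2 43 and 5, Tgfbr3 50 and 4, and the laminin gene Lamc1 35 and 4. Itga6, an integrin subunit gene of epithelial basal contacts, had 28 opened and 1 closed.

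**Figure D3:**
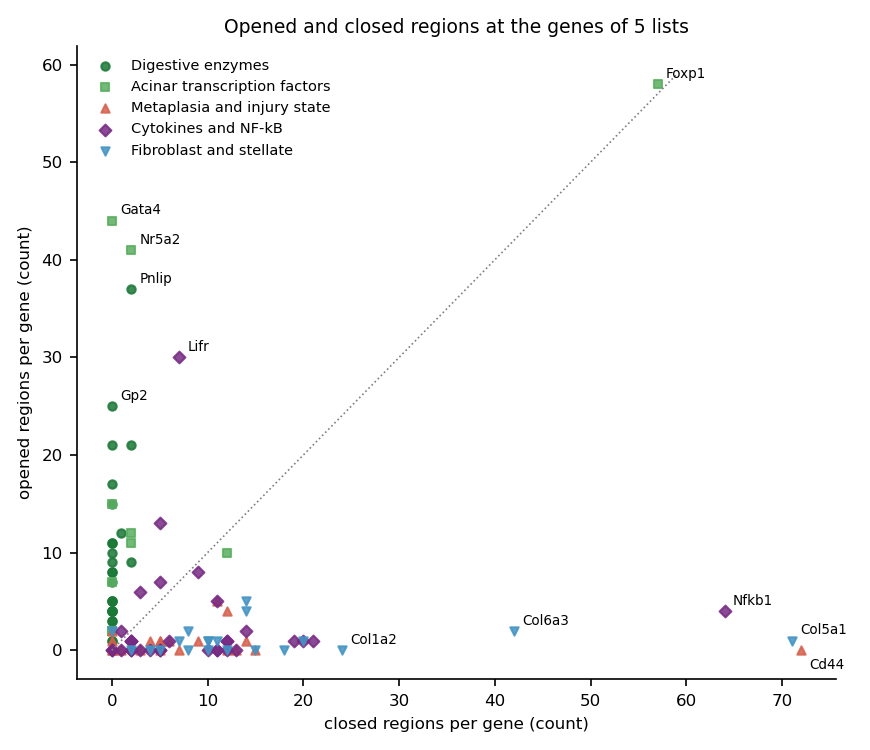
Number of opened (vertical) against closed (horizontal) regions for each gene of 5 lists; the dotted line marks equal numbers. Gata4, Nr5a2 and Pnlip lie on the opened side with at most 2 closed regions, Cd44, Col5a1 and Nfkb1 on the closed side with at most 4 opened, and Foxp1 near the line with 58 and 57.

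Genes of cells other than acinar and duct cells had regions of both kinds as well. Over all linked regions 48.4% of day 1 regions had closed and 31.1% of day 28 regions had opened. The closed shares of endothelial and myeloid genes had intervals that include the share of all linked regions. Fibroblast and stellate genes had 305 of 488 day 1 regions closed (62.5%, interval 58.0 to 66.8) and 21 of 284 day 28 regions opened (7.39%). Closed outnumbered opened regions at 19 of the 20 genes. Col5a1 had 35, 93, 53 and 36 regions over the untreated, day 1, day 7 and day 28 lists, with 71 closed. Col6a3 had 42 closed, Col1a2 24, Prrx1 20 and Dcn 18. Mesothelial genes had 44 of 68 closed (64.7%), of which 29 lay at Wt1, and smooth muscle and pericyte genes 33 of 79 (41.8%). Opened were 4 of 33 day 28 regions at mesothelial genes (12.1%) and 6 of 65 at smooth muscle and pericyte genes (9.23%). Endothelial genes had 92 of 169 closed (54.4%, interval 46.6 to 62.1) and 36 of 125 opened (28.8%). Cdh5 had 11, 9, 10 and 1 regions over the 4 lists. Myeloid genes had 33 of 58 closed (56.9%, interval 43.2 to 69.8), with 10 at Csf1r and 8 at Ptprc. They had 9 of 34 day 28 regions opened (26.5%), and the promoter window of Cx3cr1 held an opened region and no day 1 peak. Lymphoid genes had 49 of 79 closed (62.0%, interval 50.4 to 72.7) and 15 of 50 opened (30.0%). The leukocyte gene Ptprc had 4, 10, 4 and 2 regions. Over the untreated, day 1, day 7 and day 28 lists, regions summed to 249, 488, 362 and 284 for fibroblast, 199, 169, 181 and 125 for endothelial, 45, 58, 51 and 34 for myeloid and 61, 79, 65 and 50 for lymphoid genes. All fibroblast genes had a day 1 region, while the macrophage gene Adgre1 and the T and B cell genes Cd8a and Ms4a1 had none in any list. The share of stromal and immune cells in each preparation, and its part in the closed regions, was not tested.

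Tuft cell genes, which mark a chemosensory cell type, had 92 of 145 closed (63.4%) and 34 of 100 opened (34.0%). The shares over all linked regions were 48.4% and 31.1%. Dclk1 had 19, 63, 42 and 26 regions and 46 closed, while the tuft cell gene Gfi1b had 10, 3, 4 and 12 with 9 opened. Islet genes had 37 of 107 closed (34.6%) and 13 of 93 opened (14.0%), but 16 closed and 22 opened under the common enrichment floor. Schwann and neural genes had 23 of 42 closed (54.8%) and 3 of 29 opened (10.3%). Counts were small at erythroid genes (9 of 19 closed, 2 of 14 opened) and at skeletal muscle genes (19 of 32 and 6 of 25). Among ubiquitous genes 37 of 108 had closed (34.3%) and 32 of 100 had opened (32.0%). Cell cycle genes had 56 of 154 closed (36.4%) and 40 of 133 opened (30.1%), and Cdkn1a, which encodes the p21 cell cycle inhibitor, had 7 opened and 1 closed. Under the common enrichment floor the ubiquitous genes had 39 opened and 25 closed regions and the cell cycle genes 46 and 37.

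The untreated list, which the definition did not use, separated the 2 kinds of region. Of the opened regions 26151 overlapped an untreated peak, or 64.5% (interval 64.1 to 65.0), while 9205 of the closed regions did, or 11.1% (10.8 to 11.3). Regions with a peak at both times overlapped an untreated peak in 81.5% of the day 28 and 85.04% of the day 1 regions. Among untreated regions without a day 1 peak, 51.0% had a day 28 peak. Among those without a day 28 peak, 32.2% had a day 1 peak. Day 7 stood between, with a peak over 37.1% of opened and 34.1% of closed regions. Opened regions with an untreated peak were found at day 7 more often (45.6%) than those without (21.7%).

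**Figure D4:**
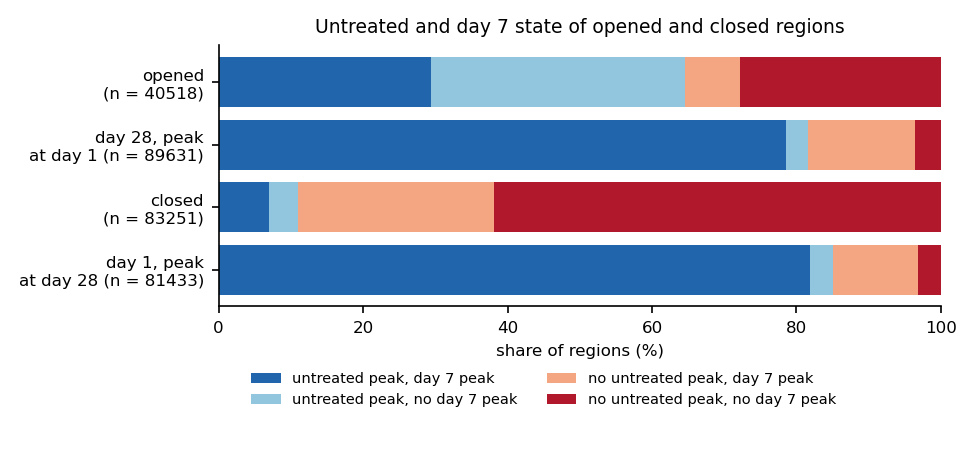
Share in percent of opened and closed regions, and of regions with a peak at both times, that had a peak in the untreated and day 7 lists. Both blue parts, which hold an untreated peak, sum to 64.5% of opened and 11.1% of closed regions.

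A smaller set of 14367 opened regions had no untreated peak, and 11252 of these had no day 7 peak either. They were weak and narrow, with a median fold of 3.97 and a median width of 174 bp, against 5.96 and 313 bp for opened regions with an untreated peak. Snd1, which encodes a nuclease-domain coactivator, was the gene with the most opened regions, 89, of which 25 were in the untreated list, and its counts were 87, 76, 81 and 158. At the choline kinase gene Chka 45 of 49 day 28 regions had opened and 14 of the 45 were in the untreated list. At the enzyme genes 193 of 260 opened regions (74.2%) were in the untreated list.

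Strong regions were seldom opened or closed. In the weakest decile of the day 28 list 49.7% of regions had opened and in the strongest decile 1.94%. In the day 1 list the closed share was 76.1% in the weakest and 3.11% in the strongest decile. The 253 opened regions of the strongest decile all had an untreated peak, compared with 37.3% of the opened regions in the weakest decile. Of the 513 closed regions of the strongest decile 51.7% had an untreated peak and 98.6% a day 7 peak.

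**Figure D5:**
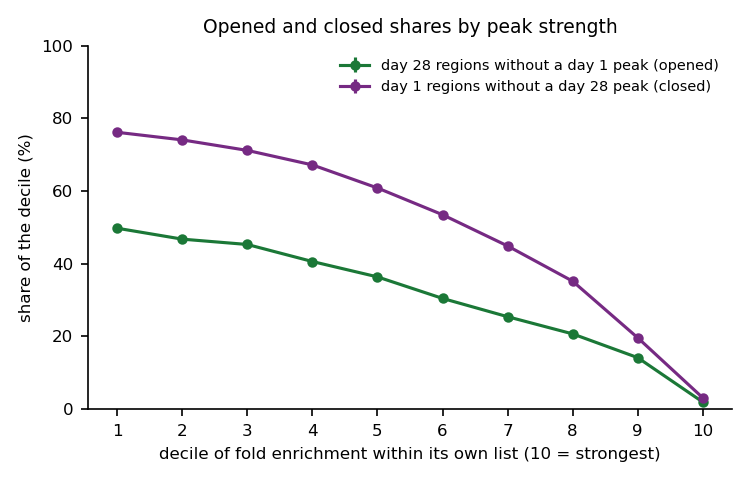
Share in percent of each decile of the day 28 list that had opened (green) and of the day 1 list that had closed (purple), by fold enrichment within its own list, with exact 95% intervals. Opened shares go from 49.7% to 1.94% and closed shares from 76.1% to 3.11% between the weakest and the strongest decile.

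The strongest opened region lay inside Upp2, the gene of uridine phosphorylase 2, at chromosome 2, 58747508 to 58748671. Its fold was 60.96 in the untreated list, 14.2 at day 7 and 90.8 at day 28. It was followed by regions inside Dpp9 (88.6 fold), Marchf10 (84.6 fold), Lcmt1 (80.3 fold), Prkcb (80.0 fold), Atp6v0a4 (77.2 fold) and Cracdl (76.1 fold), and 5175 bp from Sel1l (76.1 fold). Regions 3359 bp from Hemk1 and 36 bp from Fam25c completed the 10. All 10 had an untreated peak of at least 50.9 fold and a day 7 peak of at most 29.0 fold, each on the scale of its own list.

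The strongest closed region lay inside Rbm20, a splicing factor gene, at chromosome 19, 53731524 to 53733237. Its fold was 5.60 in the untreated list, 105 at day 1 and 32.0 at day 7. Next were regions 15307 bp from Ccn4 (96.4 fold), which encodes a matricellular protein, inside Rdh8 (84.3 fold), Spef1l (84.1 fold) and Map3k4 (81.6 fold), and 40919 bp from Trabd2b (81.5 fold). Regions at Aebp1, Syn3, Prickle2 and Arhgap31 completed the 10. In the untreated list all 10 had a peak, but a low one of 3.46 to 6.76 fold, where the median of that list was 4.78. The strongest opened regions were thus strong before the injury, and the strongest closed regions were weak before it.

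Across the annotation, 9501 of 21631 protein-coding genes had an opened and 12608 a closed region, and 7265 had both. Of all genes, 556 had day 28 regions and no day 1 region, and 997 the reverse. After Snd1, the most opened regions lay at Arid1b with 71, Rap1gap2 with 67, Prdm16 with 63, Gse1 with 60, Foxp1 with 58, Arhgap26 with 57, Adk with 53, Rbm47 with 52 and Dmbt1 with 47. Their opened shares ran from 40.4% at Arhgap26, which had more closed regions (60), to 94.0% at Dmbt1. The share over all linked regions was 31.1%. Dmbt1, which encodes a secreted scavenger-receptor glycoprotein of epithelia, had 53, 3, 20 and 50 regions over the untreated, day 1, day 7 and day 28 lists. The most closed regions lay at Slit3 with 124, Rbms3 with 116, Tshz2 with 93, Tnc with 84, Celf2 and Ebf1 with 78 each, Arhgap24 with 75, Chst11 with 74, Cd44 with 72 and Col5a1 with 71. Their closed shares ran from 54.4% at Tshz2 to 89.4% at Tnc, against 48.4% of all linked regions. Both rankings are by count, which also depends on how many regions a gene has, and Rbms3 spans 1057168 bp. Slit3 encodes an axon guidance ligand also made by stromal cells, and had 72, 174, 107 and 75 regions. Tnc, the gene of the wound matrix protein tenascin C, had 10, 94, 23 and 12, and 83 of its 84 closed regions were absent from the untreated list.

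By share, among 3462 genes with at least 10 day 28 regions, the 10 highest were Gp2, Cpb1, Amy1, Kcnip4, Amy2b, Rnase1, Ero1b, Dmbt1, Cela3b and Defb1. All regions had opened at the first 6 of these. Amy1 and Amy2b encode amylases and Ero1b an oxidase of disulfide formation. Among 4284 genes with at least 10 day 1 regions all had closed at Gadl1 and Tnfsf11 (14 each), Neurog1 (12), Adam23, Clrn3 and Ptprq (11 each) and Armc4, Cacng6 and Dbx2 (10 each), among others. Tnfsf11, which encodes the cytokine RANKL, had 0 untreated and 1 day 7 region. Some genes had many regions of both kinds. After Foxp1 and Arhgap26 (57 opened, 60 closed) these were Foxn3 (47 and 47), Prkce (46 and 40) and Maml3 (43 and 38). Their closed shares, from 44.1% at Arhgap26 to 52.8% at Foxn3, lay near the 48.4% of all linked regions. Opened shares ran from 40.4% at Arhgap26 to 55.3% at Foxn3, against 31.1% of all linked regions. These are long genes, of 373587 bp (Foxn3) to 774669 bp (Arhgap26), with many regions in each list.

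Opened and closed regions occurred in unbroken runs with no other region of either list between them. The 120 runs of 10 or more opened regions included 44 across the kallikrein genes around Klk1b5 over 315 kb, 34 across the amylase genes over 434 kb, 25 across the Reg genes over 137 kb and 29 across the trypsinogen genes around 2210010C04Rik over 286 kb. Untreated peaks lay over 39, 31, 18 and 24 of these. A run of 39 at Chka over 38.0 kb held 9 with an untreated and 25 with a day 7 peak. Closed runs of that length numbered 462, among them 45 regions at Fam107b over 40.6 kb, 38 at Col5a1 over 131 kb, 32 and 29 at Tnc and 22 at Nfkb1 over 30.5 kb. The runs were chosen by length after the values were seen. Kallikrein, amylase, trypsinogen and Reg genes are near-identical copies, and how the authors treated such reads is not stated.

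Of the opened regions 62.4% had their summit inside a gene span and 6.20% within 1 kb of a gene end, against 59.2% and 17.98% of day 28 regions with a day 1 peak. Of the closed regions 54.6% lay inside a span and 5.03% near an end, and 17.6% lay beyond 50 kb from any gene, against 10.2% of day 1 regions with a day 28 peak. Closed shares by chromosome ran from 44.6% on chromosome 11 to 54.7% on chromosome 18, and opened shares from 27.2% on X to 33.4% on chromosome 3.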

How the data were processed

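The deposited files were narrowPeak tables, 1 per library, for 4 libraries. Among the programs named in the submitters' processing notes are the aligner Bowtie2 (2.2.6) and the peak caller MACS2 (2.1.0.20150731), and the build named there is GRCm38 (mm10). Options, duplicate removal and any correction for the transposase cut site are not stated in them. The deposited fold enrichment is a ratio of pileup to background at the summit, and the −log10 p, −log10 q and score columns deposited by the authors grade the same enrichment. Read totals were not used; a background pileup per list was recovered from the step of the fold values, which made 100% of fold values up to 100 whole multiples of the step within 0.05. It follows depth, and a region in the day 1 list needed a fold of at least 2.36 and in the day 28 list 2.84.

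Summits (start plus deposited offset) were linked to the nearest RefSeq protein-coding gene span of GRCm38.p6 within 50 kb, ties going to the shorter span. The span table holds no exons. The opened and closed counts were recomputed with bedtools 2.31.1 and were identical; overlap and linking were tested on simulated intervals. Intervals are exact (Clopper-Pearson, 95%) and cover counting error only. Of 495 genes in 29 lists 494 matched, and Ctrc, a pseudogene in the table, did not. The members and lists were chosen with earlier results of these data known. Promoter windows of 17274 genes, 353 of them in the lists, came from RefSeq. Named were the 10 strongest opened and closed regions with a gene, the 10 genes with the most and the 10 with the highest share (at least 10 regions) of each kind, the 5 with most of both, up to 4 genes of each list in each direction and list genes with an opened or closed gene end. Genes named outside that rule, such as Chka, the runs and the gene families were chosen after their values were seen. Some genes that the rule names are not reported here. Alternatives changed the overlap, the −log10 q minimum (5), the enrichment floor, the list length, the distance that counts as absence and the gene link. Computations used Python 3.11.15, numpy 2.4.6, pandas 2.3.3 and scipy 1.17.1.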

Additional observations from a re-analysis of the deposited data

How the results depend on the processing

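With an overlap of at least 50% of the narrower peak, the share of opened regions in the untreated list was 59.98% and of closed regions absent from it 89.6%. With a −log10 q of at least 5 these shares were 75.3% and 88.6%, with the common enrichment floor 65.2% and 87.9%, with lists of equal length 65.1% and 88.1%, and with no peak within 1 kb 66.9% and 84.3%. In that last setting an opened region counted as untreated by an overlap of 1 bp. A closed region there counted as absent only with no untreated peak within 1 kb. The floor also lowered the closed count to 53006, and the 1 kb rule the opened count to 26902; the floor removes only day 1 regions by construction. The other counts moved less. Opened minus closed regions kept its sign in 24 of the 29 lists under all 7 alternatives. Under the floor it turned positive at secretagogue (11), immediate-early and AP-1 (27), cell cycle (9), islet (6) and ubiquitous genes (14), with equal lengths at AP-1 (20), cell cycle (3) and ubiquitous genes (13), and with summits inside the span at ubiquitous genes (2). Under the floor the opened share of lymphoid genes and the closed shares of Notch and of integrin and laminin genes changed side against all linked regions, as did the closed share of integrin and laminin genes with equal lengths and the opened share of ubiquitous genes with a −log10 q of at least 5. No paired analysis was possible because each group has 1 library, and none could be left out.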

Other observations

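Gene families, grouped by the letters of their symbols before the number and ranked after the data were seen, gave a view not tied to the lists. Among 253 families with at least 5 genes and 40 day 28 regions, in which no gene supplied more than 50% of the opened regions, the Reg (85.7%) and Klk (82.4%) families had the highest opened shares. Potassium channel genes of the Kcnj family followed with 52.1%, although 55.4% of their day 1 regions had closed, bromodomain Brd genes with 51.8% and the Tmed genes of vesicle cargo receptors with 51.1%. Among 316 families ranked by closed share, 3 groups of developmental homeobox and zinc finger factors stood among the highest 10. They were Hoxd with 30 of 40 day 1 regions closed, Zic with 30 of 40, of which 15 lay at a single gene, and Dlx with 53 of 77. None had an opened region, but their day 28 regions numbered only 10, 13 and 29. The Snap family had the highest closed share (75.6%). Over all linked regions 48.4% of day 1 regions had closed and 31.1% of day 28 regions had opened. Laminin alpha chain genes (Lama) had 81 of 118 closed and glypican genes (Gpc) 72 of 104.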
